A study of Mus musculus with 24 samples.

Results

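Striated muscle genes in libraries of retroperitoneal white fat are described here. The set is a list of 42 gene names whose products build or fuel the contractile apparatus of skeletal and cardiac muscle, and they were selected on their measured levels in these same libraries, which earlier results had shown to differ widely between mice. The entries of the 8 deposited comparison tables carrying these names were taken, which gave 41 genes of the 56895 entries used. The remaining name, Cox6a2x, has no entry. By known role the 41 genes are 12 of fast fibers, 7 of slow fibers and cardiac type, 9 of the sarcomere and Z-disc, 3 of excitation-contraction coupling, 7 of energy metabolism and 3 regulators.

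A striated muscle fiber contracts when calcium released from the sarcoplasmic reticulum binds troponin on the thin filament of actin and lets the heads of myosin on the thick filament pull. Fast and slow fibers carry different genes for the same part, such as Myh4 and Myh7 for the myosin heavy chain or Tnnc2 and Tnnc1 for troponin C, and the ventricle of the heart shares several slow genes. Adipocytes do not use this apparatus, while the smooth muscle of vessel walls has actin and myosin genes of its own. Retroperitoneal fat lies against the muscle of the posterior abdominal wall and close to the kidney.

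RNA-seq of polyadenylated transcripts was performed on this fat from 24 C57BL/6J mice, with 3 mice in each of 8 groups. For at least 8 weeks before mating and through pregnancy the mothers ate food holding vitamin D3 at 1.0 IU per g in the CTRL arm and at 0.0 IU per g in the VDD arm, and all of them had the control diet from birth to weaning. The offspring, male or female, received from 6 weeks of age a low-fat diet (LF) or a diet with 45% of its energy from fat (HF) for 8 weeks. The study set CTRL against VDD under each diet and LF against HF within each maternal diet, in each sex. The groups are therefore CTRL LF, CTRL HF, VDD LF and VDD HF males and the same 4 groups of females, all of 1 genotype. The sources used here do not give the litter, so mice of a group may share a mother.

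Reads on genes numbered 13346779 to 18484346 in a library. Levels are normalized reads, that is reads divided by 1 size factor per library over all 24 libraries, or, where named, reads per 1000000 reads on genes (RPM). The adipokine gene Adipoq had 44740.0 to 109716 normalized reads, so every library had the defining gene of the labelled tissue. In 6 libraries the name holds the word renal, which the sources used here do not explain. Values of a group are given in the order of mouse number, which is 2287, 2293 and 2296 for CTRL LF males, 2127, 2128 and 2131 for CTRL HF males, 2078, 2302 and 2310 for VDD LF males and 2298, 2307 and 2308 for VDD HF males. For females it is 2124, 2125 and 2335 (CTRL LF), 2290, 2291 and 2292 (CTRL HF), 2303, 2311 and 2312 (VDD LF) and 2081, 2083 and 2121 (VDD HF).

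The 250 bases before the start of 4 of the genes are shown because Acta1 had the highest level per length of the set, Ckm the highest of the energy metabolism genes, and Myh4 and Myh7 are the fast and slow forms of the same protein. Sequences are from RefSeq (GRCm38.p6), 5′ to 3′ on the strand of the gene. They lie at chr8:123894776-123895025 (minus strand) for Acta1, chr7:19410844-19411093 (plus) for Ckm, chr11:67237562-67237811 (plus) for Myh4 and chr14:54994627-54994876 (minus) for Myh7. Capitals mark 2 motifs bound by known muscle factors, the E-box CANNTG of the MyoD family and the CArG box of serum response factor.
Acta1: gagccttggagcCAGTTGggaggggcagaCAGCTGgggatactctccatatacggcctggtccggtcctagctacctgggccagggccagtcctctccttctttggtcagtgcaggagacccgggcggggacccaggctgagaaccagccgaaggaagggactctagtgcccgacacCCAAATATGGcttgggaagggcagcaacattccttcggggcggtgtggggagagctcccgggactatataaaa
Ckm: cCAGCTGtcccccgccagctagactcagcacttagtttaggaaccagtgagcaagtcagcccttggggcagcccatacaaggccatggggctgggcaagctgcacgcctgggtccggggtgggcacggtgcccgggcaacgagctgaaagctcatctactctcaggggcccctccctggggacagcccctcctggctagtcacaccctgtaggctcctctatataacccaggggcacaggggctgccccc
Myh4: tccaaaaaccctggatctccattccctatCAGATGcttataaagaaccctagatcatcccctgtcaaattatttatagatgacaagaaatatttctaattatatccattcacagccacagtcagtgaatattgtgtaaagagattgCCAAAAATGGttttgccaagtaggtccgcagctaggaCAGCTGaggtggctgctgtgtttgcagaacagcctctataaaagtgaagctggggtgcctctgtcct
Myh7: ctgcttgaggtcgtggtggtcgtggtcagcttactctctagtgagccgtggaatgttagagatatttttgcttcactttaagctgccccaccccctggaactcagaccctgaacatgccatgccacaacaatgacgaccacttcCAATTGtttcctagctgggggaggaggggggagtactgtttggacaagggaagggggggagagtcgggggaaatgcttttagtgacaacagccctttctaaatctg

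RefSeq windows matched 33 of the 41 genes, with 40 windows in all. An E-box on either strand, which reads the same on both, was present in 34 of these windows and in 66.2% of all 32851 windows of this length. A CArG box was present in 5 of the 40 windows and in 1.47% of all windows. A match of letters is a description and does not show a bound site.

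The summed reads of the 41 genes ranged from 92.1 RPM in CTRL LF male 2293 to 98755 RPM in VDD LF male 2310, where they made up 9.88% of all reads on genes. In CTRL LF males the highest mouse had 7261 RPM and the others 92.1 and 145. VDD LF males had 137, 4939.5 and 98755 RPM, and VDD HF males 230.4, 26350 and 40698. The difference between mice of 1 group thus reached 721-fold in VDD LF males, 177-fold in VDD HF males and 78.8-fold in CTRL LF males. CTRL HF males were the closest group, with 234, 306 and 502 RPM and a ratio of 2.15. In females 1 mouse stood above the other 2 in each group, by a ratio of highest to lowest of 23.2 in CTRL LF, 6.08 in CTRL HF, 59.6 in VDD LF and 27.2 in VDD HF. Those mice were 2335 with 6468 RPM, 2292 with 2620.4, 2303 with 13854 and 2083 with 4884. In the plot of summed reads by mouse, every group has mice at 752 RPM or less, and 7 of the 8 groups have 1 or 2 mice at 2620.4 RPM or more. In bulk tissue, fewer cells of a type and less RNA per cell cannot be told apart.

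**Figure D1:**
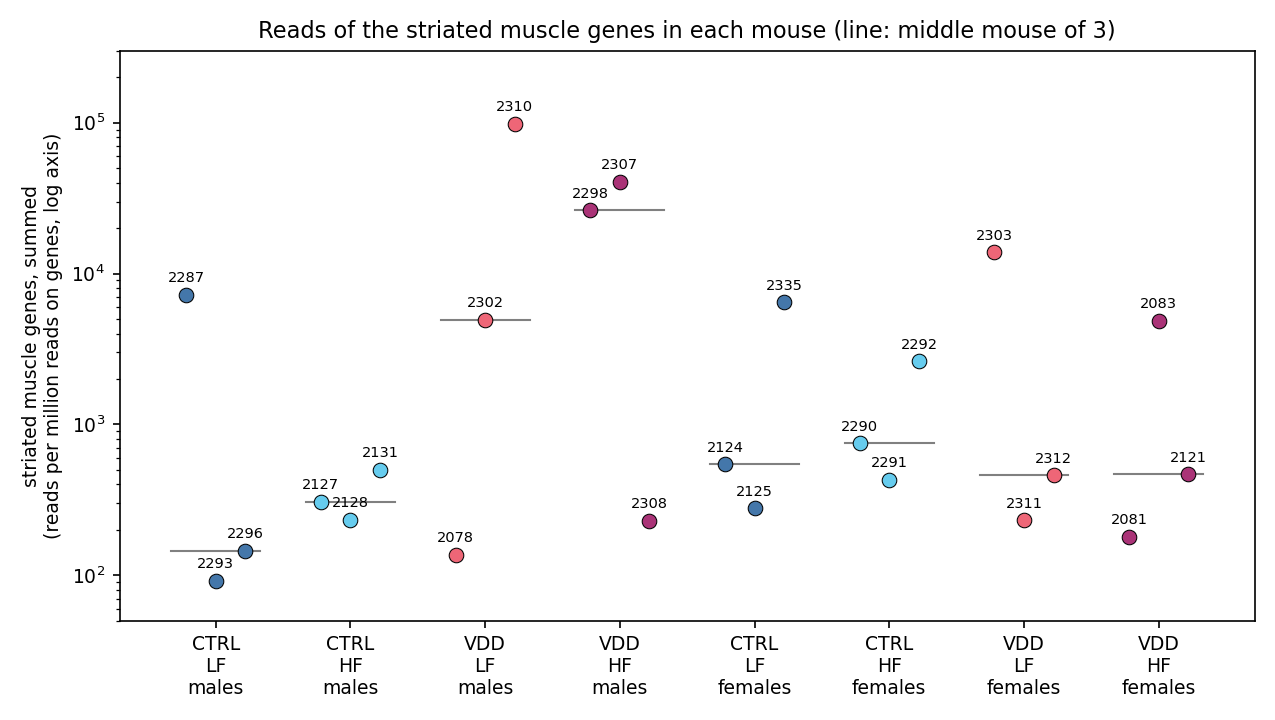
Summed reads of the 41 striated muscle genes in RPM (y axis, log scale) for each of 24 mice in 8 groups (x axis), with 1 point per mouse, its number beside it, and a line at the middle mouse of each group. VDD LF male 2310 sits highest at 98755 RPM, VDD HF male 2308 at 230.4 lies below the 3 CTRL HF males, and CTRL LF male 2293 is lowest at 92.1.

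Ckm, muscle creatine kinase (chr7:19411094-19421583), was used to divide the libraries. Ckm had 9048, 3.74 and 3.64 normalized reads in CTRL LF males, 29.1, 14.5 and 340.4 in CTRL HF males, 1.28, 7696 and 165203 in VDD LF males and 29088, 48953 and 83.9 in VDD HF males. Among females Ckm had 14.4, 7.96 and 7565 in CTRL LF, 24.6, 19.2 and 3175 in CTRL HF, 27239, 7.04 and 31.1 in VDD LF and 27.0, 5839 and 11.3 in VDD HF. In 9 libraries Ckm was at 3175 or more and in the other 15 at 340.4 or less, with no library between. These 9 libraries belong to 5 males and 4 females, and 3 of the 6 libraries named renal and 6 of the other 18 are among them. They are ordered by a measured gene, are no group of the study, and are used below only to say which mice were high.

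Acta1, skeletal muscle alpha-actin of the thin filament (chr8:123891758-123894775), had the highest level per length of the set, 118017 normalized reads per kb of exon in VDD LF male 2310. In males it had 9902, 281 and 711 normalized reads (CTRL LF), 2848, 1139 and 1311 (CTRL HF), 213, 6573 and 181274 (VDD LF) and 44073, 54003 and 1009 (VDD HF). Its values in females were 71.4, 58.7 and 9286 (CTRL LF), 826, 128 and 4619 (CTRL HF), 28596, 106 and 240.3 (VDD LF) and 978, 7765 and 189 (VDD HF). The same 9 mice were highest, but Acta1 did not fall to the level of Ckm in the others, and CTRL HF male 2127 had 2848 with 29.1 of Ckm. In the 9 mice the reads of Acta1 were 0.854 to 1.52 times those of Ckm. Acta1 is close in sequence to the cardiac and smooth muscle actin genes Actc1 and Acta2, and only reads with a single position were counted, so its level is less certain than that of Ckm.

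Fast fiber genes held more of the reads than any other class in each of these 9 mice. Myh4, the myosin heavy chain of type IIb fibers (chr11:67237812-67260447), had 24232, 23.7 and 2.73 normalized reads in CTRL LF males, 49.3, 19.0 and 721 in CTRL HF males, 0, 18226 and 297251 in VDD LF males and 68556, 135754 and 210.3 in VDD HF males. Myh4 in females was at 4.01, 5.97 and 13230.0 (CTRL LF), 11.6, 35.4 and 5034 (CTRL HF), 33483, 14.1 and 4.79 (VDD LF) and 43.7, 9063 and 3.09 (VDD HF). It spanned more than any other gene of the set, with a within-group SD of 6.24 on the log2 scale, taken as the root mean square over the 8 groups. Myh genes are near copies of each other in a cluster, so reads with more than 1 position were lost from them.

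Mylpf, the fast phosphorylatable myosin light chain (chr7:127208848-127214288), followed the same mice. Mylpf had 4053, 15.0 and 8.18 normalized reads in CTRL LF males, 29.1, 14.5 and 165 in CTRL HF males, 1.28, 2734 and 68599 in VDD LF males and 20968, 16858 and 44.1 in VDD HF males. Mylpf in females was at 8.02, 7.96 and 4821 (CTRL LF), 14.4, 21.1 and 1474 (CTRL HF), 15062, 15.2 and 11.97 (VDD LF) and 24.4, 3032 and 19.6 (VDD HF). VDD HF male 2298 had more Mylpf than VDD HF male 2307, while Ckm and Myh4 were higher in 2307.

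The fast troponins were high in the same mice as Mylpf. Tnnc2, the calcium-binding troponin C of fast fibers (chr2:164777161-164779734), had 2859.7, 9.98 and 18.2 normalized reads in CTRL LF males, 25.8, 14.5 and 119.7 in CTRL HF males, 2.56, 3066 and 54091 in VDD LF males and 13755, 19483 and 44.1 in VDD HF males. Tnnc2 in females was at 5.61, 3.98 and 2574.8 (CTRL LF), 9.58, 27.8 and 1059.7 (CTRL HF), 8963, 4.69 and 7.18 (VDD LF) and 14.1, 2312 and 7.21 (VDD HF). The lowest of the 9 high mice, CTRL HF female 2292, was above the highest other mouse, CTRL HF male 2131. Tnnt3, the fast troponin T that ties the complex to tropomyosin (chr7:142498771-142516213), had 6978, 7.48 and 12.7 in CTRL LF males, 31.4, 11.8 and 241 in CTRL HF males, 7.69, 6433 and 111531 in VDD LF males and 26768, 37481 and 70.1 in VDD HF males. For Tnnt3 the females had 15.2, 11.9 and 5108 (CTRL LF), 36.9, 30.7 and 2146 (CTRL HF), 16111, 5.86 and 14.4 (VDD LF) and 28.3, 4834 and 19.6 (VDD HF). Tnnt3 had the highest level per length of the fast class, 70456 normalized reads per kb in VDD LF male 2310, beside 67614 for Tnnc2 and 64594 for Mylpf.

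Of the other fast genes, Atp2a1, the calcium pump that refills the reticulum, ranged from 1.03 to 199678 normalized reads and Pvalb, the calcium buffer parvalbumin, from 0 to 55553. Actn3, the fast alpha-actinin, ranged from 3.74 to 86923 and the fast myosin-binding protein Mybpc2 from 0 to 55851. Tnni2, fast troponin I, ranged from 2.49 to 61206. Myl1, the alkali light chain, was the exception at the low end, since it never fell under 312 and still had 312 to 756 in the 15 low mice, beside 1792 to 78936 in the 9 high ones. In 10 of the 12 fast genes the 9 mice highest in Ckm were also the 9 highest, the exceptions being Myh1 and Myh2, the heavy chains of type IIx and IIa fibers.

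**Figure D2:**
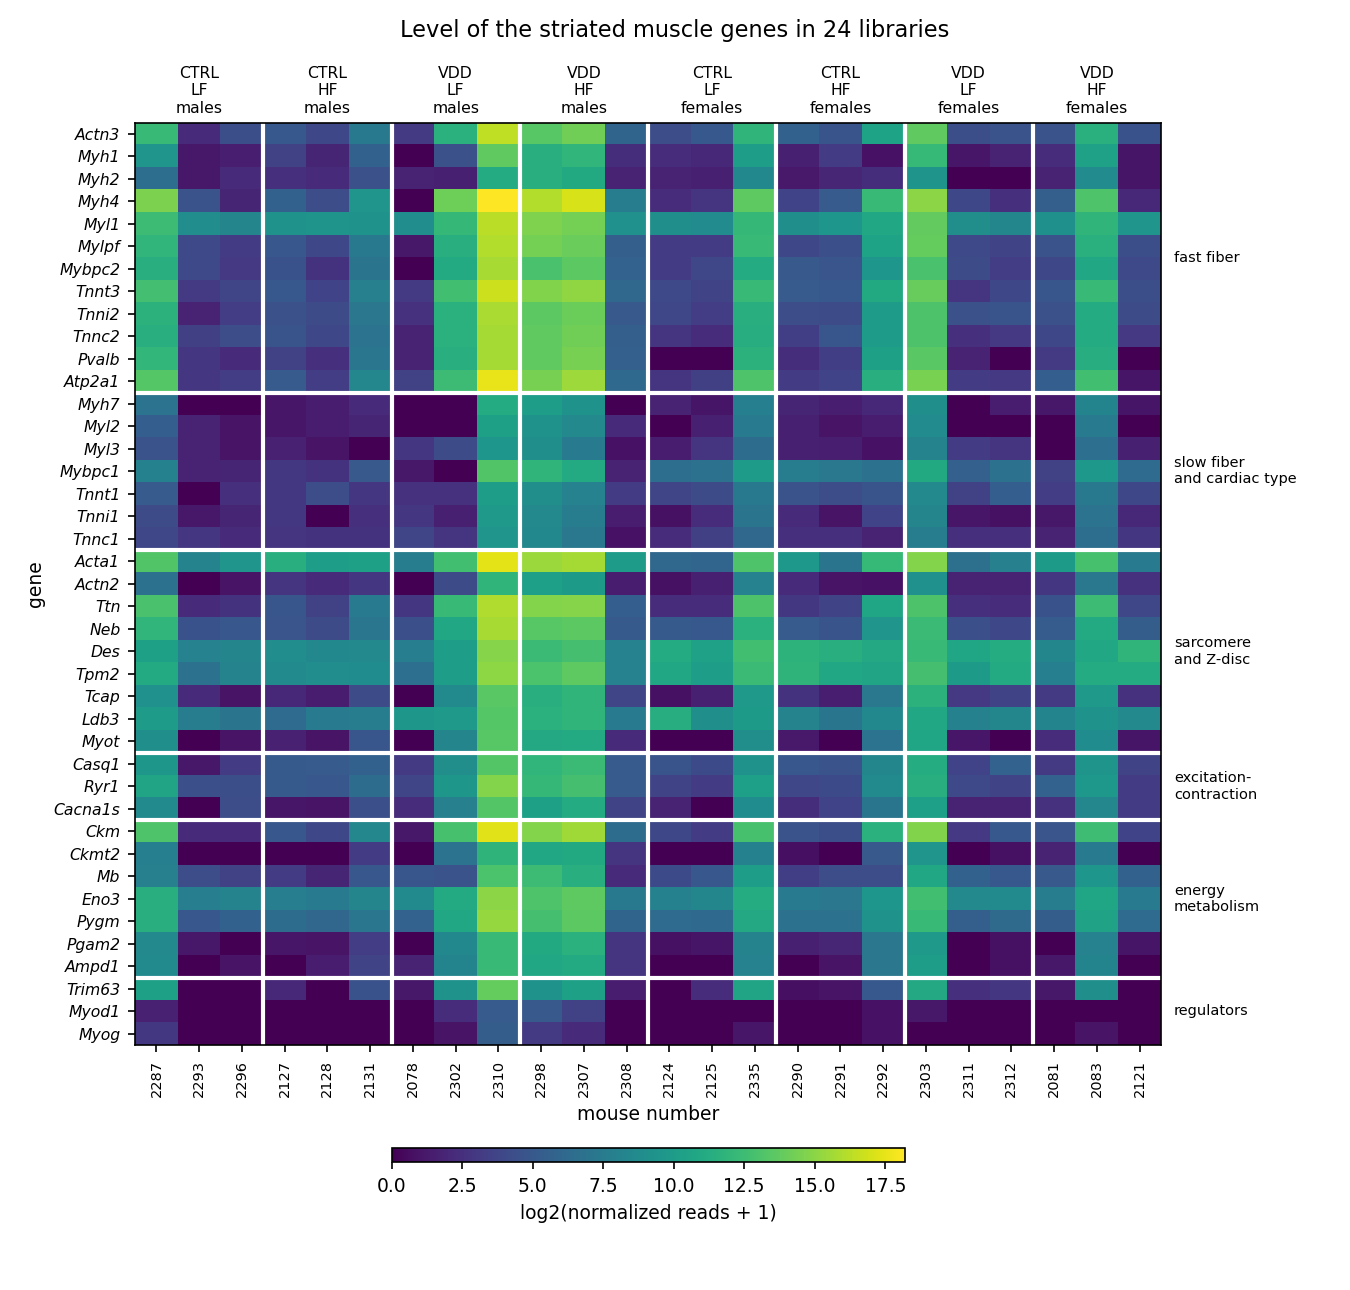
Level of each of the 41 genes (rows, by class) in the 24 libraries (columns, mouse number below, group above), with color giving log2(normalized reads + 1) from 0 (dark) to 18.2 (yellow). The 9 mice with Ckm at 3175 or more form bright columns across most rows, while Myl1, Des, Tpm2, Ldb3 and Eno3 keep a middle level in the other 15.

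Slow fiber and cardiac type genes were far lower and did not mark the same 9 mice, since in 0 of the 7 were those mice the 9 highest. Myh7, the heavy chain of slow fibers (chr14:54970684-54994626), had 118, 0 and 0 normalized reads in CTRL LF males and 1.12, 1.81 and 3.57 in CTRL HF males. In VDD LF males Myh7 had 0, 0 and 2355, and in VDD HF males 1192, 638 and 0. Myh7 in females was at 2.41, 0.995 and 233 (CTRL LF), 2.74, 1.92 and 3.31 (CTRL HF), 529.9, 0 and 1.6 (VDD LF) and 1.29, 298 and 1.03 (VDD HF). Thus 7 mice had over 100 and the others under 4, and VDD LF male 2302 and CTRL HF female 2292, both high in Ckm, were on the low side.

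Tnnc1, troponin C of slow fibers and heart (chr14:31208312-31211729), had 13.5, 6.24 and 3.64 normalized reads in CTRL LF males, 5.6, 5.43 and 5.36 in CTRL HF males, 12.8, 5.94 and 710.2 in VDD LF males and 362, 155 and 0.865 in VDD HF males. Tnnc1 in females was at 4.01, 9.95 and 67.9 (CTRL LF), 4.79, 4.79 and 2.49 (CTRL HF), 204, 4.69 and 4.79 (VDD LF) and 2.57, 92.2 and 6.18 (VDD HF). Its highest values fell in VDD LF male 2310 and VDD HF male 2298, and CTRL LF male 2287 with 13.5 was close to VDD LF male 2078 with 12.8, which had 1.28 of Ckm. Mybpc1, slow myosin-binding protein C (chr10:88518279-88605229) and the slow gene with the most reads per kb, had 252, 2.49 and 2.73 in CTRL LF males, 6.72, 5.43 and 33.1 in CTRL HF males, 1.28, 0 and 9534 in VDD LF males and 3825, 2216 and 2.6 in VDD HF males. For Mybpc1 the females had 93.0, 108 and 1037 (CTRL LF), 196, 158 and 112 (CTRL HF), 2141, 45.7 and 113 (VDD LF) and 10.3, 811 and 79.3 (VDD HF). Females low in Ckm thus had 10.3 to 196 of Mybpc1 and males low in Ckm at most 33.1, a contrast noticed in the values and not tested.

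Among the remaining slow genes Myl2, the regulatory light chain of slow and ventricular myosin, reached 1320 normalized reads and Myl3, its essential partner, 757. Tnnt1 and Tnni1, slow troponins T and I, reached 1114 and 883. All 4 were highest in VDD LF male 2310. In that mouse the slow genes had 245.4 to 2106 normalized reads per kb, against 118017 for Acta1, and the slow troponin C had 682 per kb where the fast one had 67614.

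Per length, slow genes made up 2.66% of the fast and slow reads in VDD HF female 2083, 2.15% in CTRL LF female 2335, 1.96% in VDD HF male 2298 and 1.66% in VDD LF female 2303. The share was 0.98% in VDD LF male 2310, 0.754% in VDD HF male 2307, 0.472% in CTRL HF female 2292, 0.450% in CTRL LF male 2287 and 0.0723% in VDD LF male 2302. The 9 high mice thus differed among themselves in slow content, with VDD LF male 2302 far below the rest. In the plot of slow against fast genes, VDD LF male 2302 and CTRL HF female 2292 lie under the other 7 in summed slow RPM. By share, CTRL HF female 2292 was not under CTRL LF male 2287. With paralog pairs only, the order of CTRL HF female 2292 and CTRL LF male 2287 by share was reversed.

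**Figure D3:**
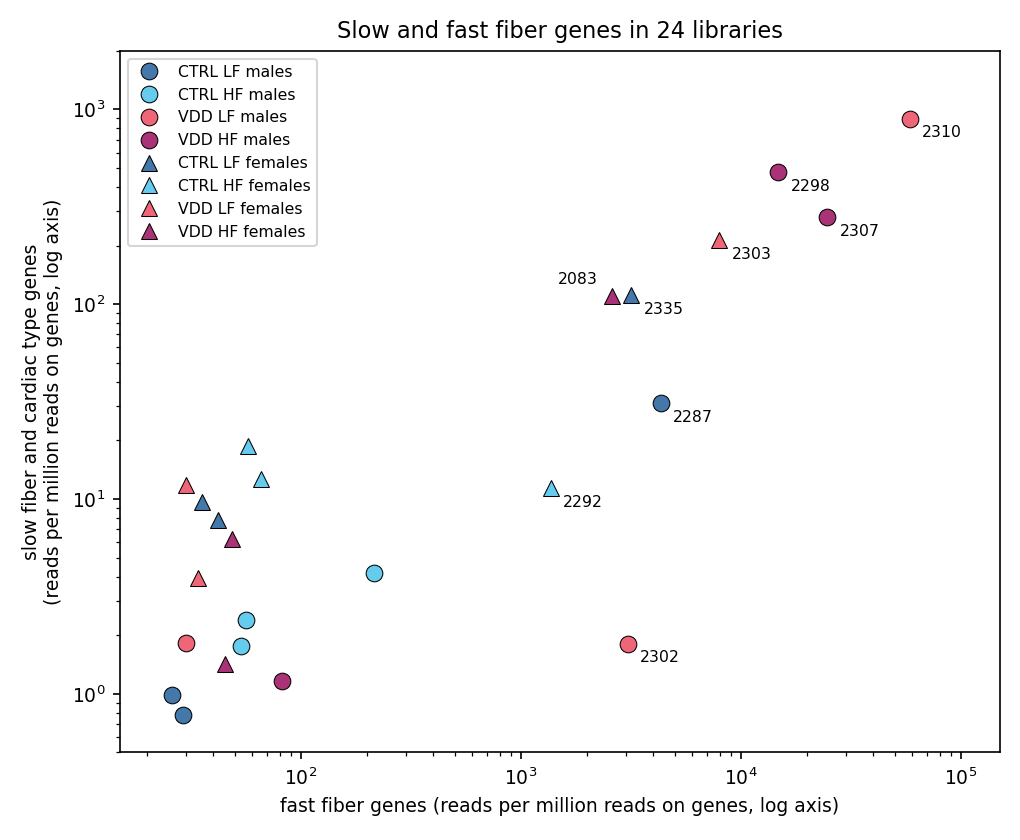
Summed RPM of the 7 slow fiber and cardiac type genes (y axis) against the 12 fast fiber genes (x axis) in 24 libraries, both on log axes, with circles for males, triangles for females, color for maternal and offspring diet, and mouse numbers for the 9 libraries with most Ckm. VDD LF male 2302 has 1.81 RPM of slow beside 3060 RPM of fast genes, while VDD HF female 2083 has 110.1 slow beside 2590.2 fast.

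Among the reads of the 4 adult heavy chain genes, Myh4 took 94.1% in VDD LF male 2310, 95.2% in VDD HF male 2307, 90.8% in VDD HF male 2298 and 96.4% in CTRL LF male 2287. In the females it took 85.0% in VDD LF 2303, 88.3% in CTRL LF 2335 and 81.2% in VDD HF 2083. In VDD LF male 2302 and CTRL HF female 2292 it took 99.9% and 99.8%, so IIx, IIa and slow chains were nearly missing there. The IIx gene Myh1 took 12.3% in VDD HF female 2083 and 11.95% in VDD LF female 2303, beside 0.119% and 0.0164% in those last 2 mice. Myh7 took 2.67% in VDD HF female 2083 (95% Wilson interval 2.39% to 2.98%, 304 of 11385 reads) and 0.0657% in CTRL HF female 2292 (0.0256% to 0.169%, 4 of 6086 reads). It had 0 of 18424 reads in VDD LF male 2302, which allows a share of up to 0.0163%. Intervals and limits cover counting error only, and the sequence likeness of these genes, named above, applies to each share.

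**Figure D4:**
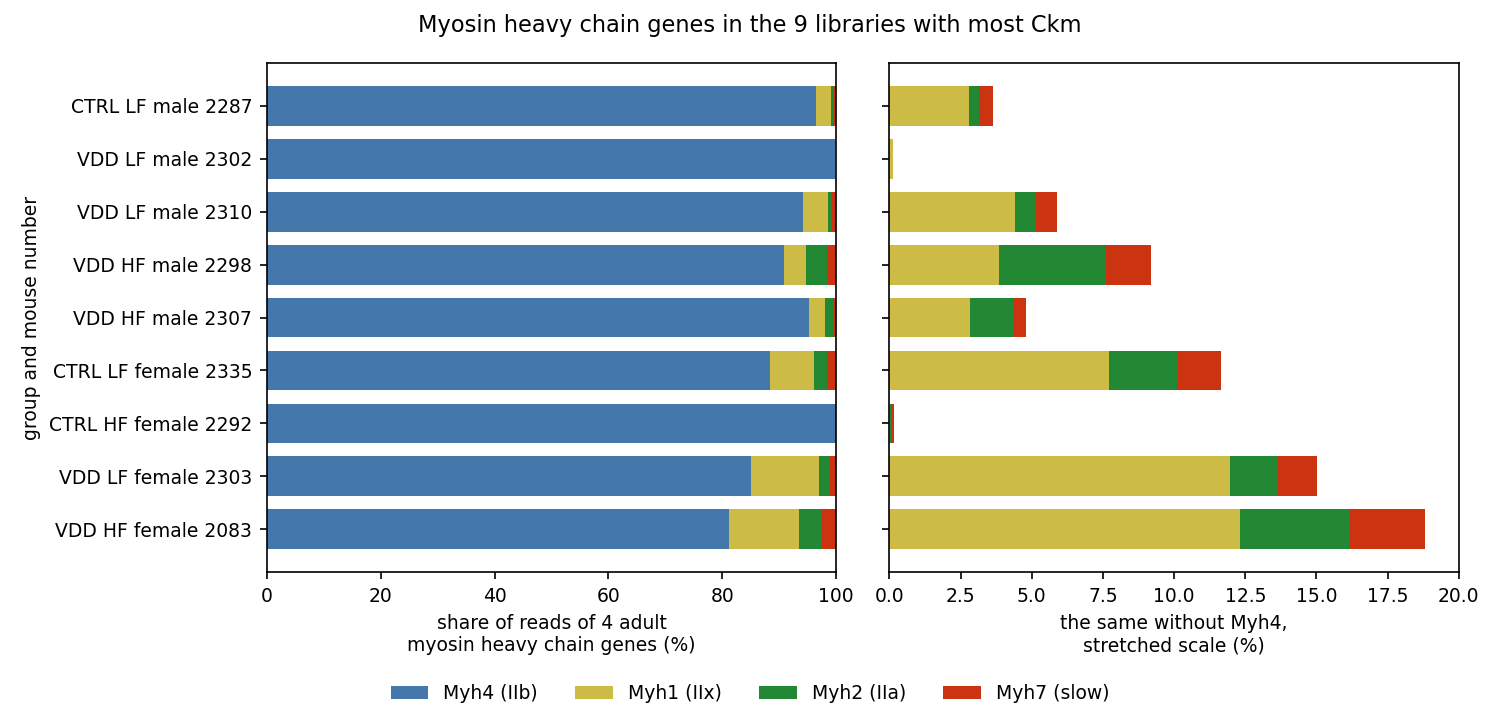
Share of Myh4, Myh1, Myh2 and Myh7 in the reads of these 4 adult myosin heavy chain genes (x axis, percent) in the 9 libraries with most Ckm (y axis), with all 4 genes on the left and, stretched, the 3 genes other than Myh4 on the right. Myh4 takes 81.2% to 99.9%, and the bars other than Myh4 almost vanish in VDD LF male 2302 and CTRL HF female 2292.

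Sarcomere and Z-disc genes fell into 2 kinds. In Acta1, the giant scaffold genes Ttn (titin) and Neb (nebulin), the titin cap gene Tcap and the Z-disc gene Myot (myotilin), the 9 mice highest in Ckm were again the 9 highest. Ttn had 1761 to 66287 normalized reads in them and 3.74 to 176 in the others, and Neb had 715 to 56291 and 14.4 to 138. The other 4 genes overlapped between these mice. Actn2, an alpha-actinin of all striated fibers, reached 3790 in VDD LF male 2310 but only 0.829 in CTRL HF female 2292. Des, the intermediate filament desmin that smooth muscle also makes, had 1291, 267 and 315 in CTRL LF males, 475, 361 and 377 in CTRL HF males, 222, 1095 and 30825 in VDD LF males and 5307, 7158 and 261 in VDD HF males. Des in females was at 2386, 1356 and 6448 (CTRL LF), 3440.4, 2746 and 2023 (CTRL HF), 5030.1, 1637 and 2476 (VDD LF) and 321, 1787 and 3808 (VDD HF). Females low in Ckm therefore had up to 3808 of Des, with VDD HF female 2081 as the exception at 321.

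Myh11, the smooth muscle heavy chain and no member of the set, had 229 to 1588 normalized reads in males and 1233 to 10191 in females other than VDD HF female 2081, which had 332. The 8 smooth muscle genes summed to 90.9 to 2434 RPM in the 9 mice with most Ckm and to 75.3 to 2727 in the other 15, so they did not mark the same mice. Tpm2, beta-tropomyosin, is likewise made by smooth muscle and had 101 to 3555 in the 15 mice low in Ckm. Ldb3, a Z-disc adaptor, had 2517 in CTRL LF female 2124, a mouse with 14.4 of Ckm, more than in 6 of the 9 mice with most Ckm. Their part in the levels of Des, Tpm2 and Ldb3 was not tested.

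All 3 genes of excitation-contraction coupling followed Ckm. Casq1, the calcium store protein calsequestrin of fast fibers (chr1:172209894-172219895), had 772, 1.25 and 8.18 normalized reads in CTRL LF males, 34.7, 36.2 and 49.1 in CTRL HF males, 7.69, 501 and 10104 in VDD LF males and 4027, 5297 and 36.3 in VDD HF males. Casq1 in females was at 25.7, 15.9 and 654 (CTRL LF), 29.4, 23.9 and 323 (CTRL HF), 2423, 11.7 and 51.9 (VDD LF) and 7.71, 668 and 12.4 (VDD HF). Its lowest value among the 9 high mice, 323, was above its highest elsewhere, 51.9. Ryr1, the calcium release channel, had 418 to 28492 in those 9 mice and 7.96 to 85.8 in the others, and Cacna1s, the voltage sensor that opens it, had 131 to 10257 and 0 to 20.5.

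In energy metabolism, 6 of the 7 genes with an entry put the same 9 mice on top. Ckmt2, the mitochondrial creatine kinase, had no read in 10 libraries and reached 3596 normalized reads. Pgam2, muscle phosphoglycerate mutase, reached 4892 and Ampd1, muscle AMP deaminase, 4938. Pygm, muscle glycogen phosphorylase, kept 29.9 to 140.3 in the 15 mice low in Ckm and Eno3, muscle enolase, 145 to 419, beside up to 39929 and 33665 in VDD LF male 2310. Mb, the oxygen store myoglobin of slow and oxidative fibers, was the gene that broke the order. It had 24.8 in VDD LF male 2302 and 19.1 in CTRL HF female 2292, both high in Ckm and low in slow genes, and up to 49.3 among the mice low in Ckm.

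Of the regulators, Trim63, the ubiquitin ligase MuRF1 of muscle wasting (chr4:134315120-134329629), had 1291, 0 and 0 normalized reads in CTRL LF males, 3.36, 0 and 23.2 in CTRL HF males, 1.28, 608 and 14868 in VDD LF males and 617, 1318 and 1.73 in VDD HF males. Trim63 in females was at 0, 3.98 and 1543 (CTRL LF), 0.684, 0.958 and 31.5 (CTRL HF), 1964, 4.69 and 6.39 (VDD LF) and 1.29, 534 and 0 (VDD HF). CTRL HF female 2292 had the least of the 9 high mice, not far above CTRL HF male 2131. The myogenic transcription factor genes Myod1 and Myog were near the limit of detection, with 0 reads in 17 and 16 libraries and at most 36.3 and 40.95, both in VDD LF male 2310. Myod1 and Myog had no read in any of the 15 mice low in Ckm.

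Counted over all classes, the 9 mice highest in Ckm were also the 9 highest in 25 of the 41 genes, including Ckm itself, and in 31 of 55 other striated muscle genes. Over all 18399 genes with at least 10 normalized reads in 3 libraries the share was 0.739% (136 genes). Since the set was chosen for its spread, these counts describe it and test nothing. The 3 other striated genes with the most reads per kb were Myoz1 (calsarcin of fast Z-discs), Mylk2 (skeletal myosin light chain kinase) and Eef1a2 (the elongation factor of muscle and neurons). They reached 17119, 18698.5 and 9227 normalized reads, each in VDD LF male 2310, and each was at 0 in at least 1 library.

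The spread between mice of a group was measured as the SD of log2(normalized reads + 1) over its 3 mice. For the 40 genes of the set with at least 10 normalized reads in 3 libraries, the median within-group SD was 4.07, and over all 18399 such genes it was 0.377. By class, with no filter on low values, the median was 4.89 for fast genes, 4.37 for energy metabolism, 3.81 for the sarcomere and Z-disc, 3.78 for excitation-contraction coupling, 3.13 for slow genes and 1.38 for the 3 regulators. Among the regulators Trim63 had 4.87, while Myod1 and Myog, with 0 reads in 17 and 16 libraries, had 1.38 and 1.35. By group the median of the 40 genes ran from 1.48 in CTRL HF males to 5.96 in VDD LF males. Over all genes it ran from 0.216 in CTRL LF females to 0.395 in VDD LF males. VDD LF males thus had the widest spread on both counts.

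Across the 24 libraries the genes most like the set, by the correlation of their log2 level with the mean log2 level of the 40 genes, included other muscle genes. Klhl41, a sarcomere-stabilizing Kelch protein, had a Pearson r of 0.993 over 24 libraries, 0.989 over the 9 libraries with most Ckm and 0.728 over the other 15. Nrap, a scaffold of myofibril assembly, had 0.992, and Trim54 had 0.990. Lower values were those of Mypn (myopalladin), Gm12224, Hrc (a calcium-binding protein of the reticulum), Nctc1, Mylk2 and Trim55, down to an r of 0.986. Within the set Neb and Ckmt2 had r = 0.990 and Des the lowest value at 0.692, with 0.044 over the 15 libraries low in Ckm. The libraries share their size factors and fall into 2 clusters, so these values are a description.

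Markers of other tissues were read beside these levels. The white adipocyte list of 10 genes summed to 31143 to 65421 RPM, lowest in VDD LF male 2310, the mouse with most muscle reads. Of the cardiac markers, Nkx2-5 had no read in any library. There were at most 1.66 normalized reads of Nppa, 0.865 of Nppb and 39.1 of Myh6, a heavy chain of the heart. That value of Myh6 was in VDD LF female 2312, where Myh7 had 1.6. The 14 cardiac genes summed to 15.9 to 48.8 RPM in the 9 mice with most Ckm and to 7.29 to 49.8 in the other 15. Of the genes of muscle precursors and embryonic fibers there were at most 9.34 normalized reads of Pax7, 3.51 of Myh3 and 11.7 of Myh8. The sum over that list reached 56.1 RPM in VDD LF male 2310, where Myf6, a factor that mature fibers also express, had 1007 normalized reads.

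Kidney markers were high in 1 library only, VDD LF female 2303, with 485 RPM over 10 genes beside at most 52.5 elsewhere. That mouse had 1937 normalized reads of Umod and 2907 of Slc34a1, genes of the tubule, together with 27239 of Ckm. In the other 8 mice with most Ckm the kidney list was at 1.23 to 46.1. The 6 libraries named renal do not include VDD LF female 2303 and had 2.16 to 19.0 RPM of this list. The adrenal list, which the ovary shares in part, ranged from 1.92 to 2362 RPM over the 9 mice, highest in CTRL HF female 2292, and from 2.92 to 1107 over the other 15, highest in VDD HF female 2121. The brown adipocyte list ranged from 68.0 to 1588 over the 9 mice and from 68.2 to 2374 over the other 15. The part of these tissues in the muscle levels was not tested.

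The 8 comparisons of the study were fitted with limma on the log2 values of each table, and a gene was called at an adjusted p under 0.01 with a fold change above 1.5 or below 0.66. A member is counted here only if it had at least 10 normalized reads in 3 of the 6 libraries, which left 21 to 40 of the 41 genes. A member low in most mice could pass with the help of the few high mice, so these counts do not stand for all members. In no comparison was any of them called, by limma or by limma-voom. For CTRL vs. VDD the share called over all genes tested was 0% under LF and under HF in males (33 and 31 members tested) and 0% under LF and under HF in females (21 and 25). For LF vs. HF it was 0.0578% in CTRL males (24 members tested), 0.0752% in VDD males (40), 0% in CTRL females (25) and 0% in VDD females (24). At an unadjusted p under 0.05, limma gave 23 members in CTRL HF vs. VDD HF males, where 5.31% of all genes passed, 1 in CTRL HF vs. VDD HF females (16.7%) and 1 in CTRL LF vs. CTRL HF females (28.8%). It gave 0 under LF for CTRL vs. VDD in males (6.79% of all genes) and females (12%), and 0 for LF vs. HF in CTRL males (18.8%), VDD males (25.9%) and VDD females (5.05%). At this threshold limma-voom gave 3 members in CTRL HF vs. VDD HF males, where 766 of all 16013 genes passed. It gave 1 in CTRL LF vs. CTRL HF females, where 4680 of 16563 passed, and 0 in the other 6 comparisons. In these 6, for CTRL vs. VDD, 1039 of 15438 genes passed in LF males, 1868 of 16046 in LF females and 2809 of 16480 in HF females. For LF vs. HF, 2901 of 15583 passed in CTRL males, 4149 of 15965 in VDD males and 777 of 15923 in VDD females. The members were chosen with these contrasts known, so nothing is read from the counts.

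In CTRL HF vs. VDD HF males, Ckm averaged 5.87 and 12.4 on the log2 scale of that table, a difference of 6.498 ± 2.35 (SE) with an adjusted p of 0.940 by limma. Acta1 differed by 3.03 ± 1.39 and Myh4 by 7.11 ± 2.42 there, with adjusted p of 0.940 each by limma. VDD HF males 2298 and 2307 were above all CTRL HF males in these genes and VDD HF male 2308 was not. Without 2308, a fit with 2 VDD HF males called 148 genes (0.924% of those tested), among them 30 of the 31 members tested and 31 of 36 other striated muscle genes, all 30 members higher in VDD. The call thus turned on 1 library. VDD HF male 2308 was the only VDD HF male low in Ckm, and without it 2 high mice stood against 3 low ones. Members chosen with these contrasts known could then hardly fail to be called and higher in VDD, so the counts test nothing.

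Between CTRL LF and VDD LF males, Ckm averaged 5.73 and 10.3, a difference of 4.62 ± 4.53 with an adjusted p of 0.856 by limma. VDD LF male 2078 had 1 read of Ckm and CTRL LF males 2293 and 2296 had 3 and 4, too few to rank these mice. CTRL LF male 2287 was above VDD LF male 2302. In females the difference of Ckm between CTRL and VDD was 0.92 ± 3.53 under LF and 0.11 ± 2.77 under HF. From LF to HF, Ckm differed by -0.12 ± 2.52 in CTRL males, 1.79 ± 4.47 in VDD males, 0.20 ± 2.85 in CTRL females and -0.60 ± 3.45 in VDD females. None of these 6 was larger than its standard error.

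Among the members that passed the filter on low values of a comparison, 1 member separated the 3 mice of 1 group from the 3 of the other in each of 2 comparisons. Mb was higher in all 3 VDD HF than in all 3 CTRL HF females, by 2.76 ± 1.12 with an adjusted p of 0.284 by limma, and 11.1% of all genes had this order. Ldb3 was lower in all 3 CTRL HF than in all 3 CTRL LF females, by -2.24 ± 0.56 with an adjusted p of 0.0541 by limma, and 18.2% of all genes had that order. No other member that passed the filter of a comparison separated its 2 groups. Actn2 and Myl2 separated groups in comparisons whose filter they did not pass, with several mice at a few reads. Actn2 had 6.43, 158 and 5.15 normalized reads in the VDD HF females against 3.42, 0.958 and 0.829 in the CTRL HF females. Myl2 had 645, 382 and 3.46 in the VDD HF males against 1.12, 1.81 and 2.68 in the CTRL HF males. Over all genes, the second group lay wholly above the first for 6.83% (LF males), 5.04% (HF males) and 8.48% (LF females) in CTRL vs. VDD and for 13% (CTRL males), 17% (VDD males), 16.9% (CTRL females) and 5.55% (VDD females) in LF vs. HF. It lay wholly below for 6.59% (LF males), 5.25% (HF males), 9.74% (LF females) and 11.8% (HF females) in CTRL vs. VDD and for 11.7% (CTRL males), 16.5% (VDD males) and 6.06% (VDD females) in LF vs. HF. Each group enters 2 comparisons, so values of the comparisons that share it are not independent.

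Over all 41 genes, with no filter on low values, the median difference of VDD minus CTRL (log2) was 3.06 under LF and 5.05 under HF in males. In females it was 0.67 under LF and 0.50 under HF. For HF minus LF it was -0.88 in CTRL males, 1.13 in VDD males, -0.18 in CTRL females and -0.41 in VDD females. For the members tested, the median with 1 library left out ranged from 0.76 to 6.65 in CTRL LF vs. VDD LF males. It ranged from 3.96 to 8.40 in CTRL HF vs. VDD HF males, and in neither did its sign change. Mice high in Ckm numbered 2 in VDD LF males, 2 in VDD HF males, 1 in CTRL LF males and 0 in CTRL HF males. Most members follow those mice, so the sign could hardly change there and nothing is read from it. In the other 6 comparisons the median changed sign. In VDD LF vs. VDD HF males, leaving out VDD LF male 2310 gave 3.93 and leaving out 2078 gave -1.78. The plot of the 8 comparisons shows that the ranges cross 0 in all but the first 2. The median of all genes tested stayed between -0.02 and 0.01 in the 8 comparisons.

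**Figure D5:**
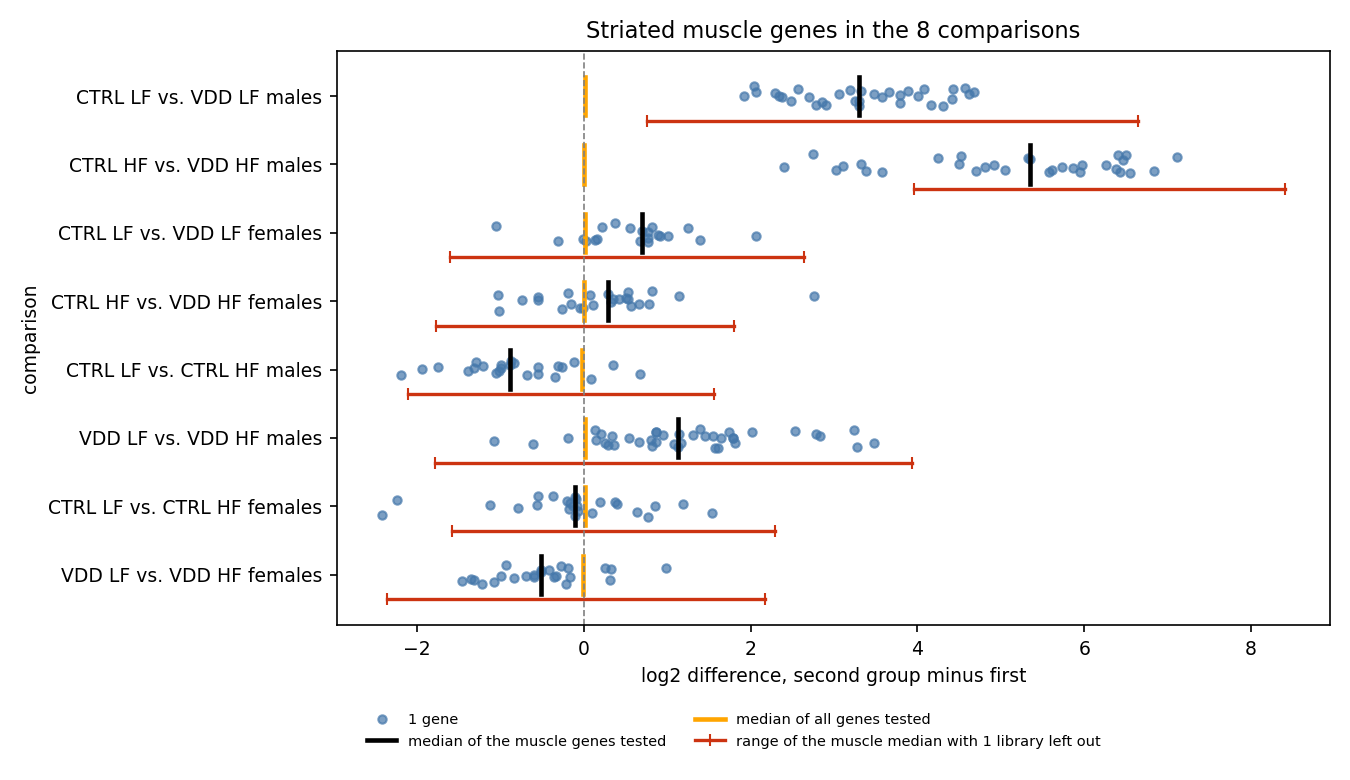
Log2 difference of each striated muscle gene tested (points) in the 8 comparisons (y axis), second group minus first (x axis), with the median of the muscle genes (black), the median of all genes tested (orange) and the range of the muscle median with 1 library left out (red). The red range runs from 3.96 to 8.40 in CTRL HF vs. VDD HF males and from -1.78 to 3.93 in VDD LF vs. VDD HF males.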

How the data were processed

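Retroperitoneal fat RNA was sequenced from 24 mice. Reads were quality-trimmed by the authors (Sickle) and mapped with STAR 2.7.0d, only those with a single position being kept. The authors added transcripts assembled with Cufflinks 2.2.1 to the GENCODE annotation, counted reads with featureCounts 1.6.1 and compared groups with DESeq2. The submitters' processing notes also name mm10, SAMtools 1.9 and MultiQC. The kit is stranded, but the sources used here do not give the strand setting of the counting. The authors deposited log2(normalized reads + 1) per library in 8 tables, 1 per comparison, beside their own fold changes and p-values, which were not used. Of 56899 entries, 4 were dropped because spreadsheet dates had made their names equal. Libraries were matched to groups by sex, maternal diet and offspring diet.

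Undoing the log2 and the size factor gave whole reads for 100% of values within 0.02, and the 24 libraries were then scaled together by the median of ratios. Lengths are those of GENCODE M21 (exon union, mm10), and gene positions are those of RefSeq (GRCm38.p6). Each comparison was fitted with limma 3.58.1 (trend) in R 4.3.3 over all genes with at least 10 normalized reads in 3 of 6 libraries, on the deposited values, with Benjamini-Hochberg adjustment, and the calling was tested on simulated data. Tables and plots were made in Python 3.11.15 (pandas 2.3.3, numpy 2.4.6, matplotlib 3.10.9, and scipy 1.17.1 for intervals). Members and lists were chosen with earlier results of these data known. Every member may be named, values in every mouse are given for Acta1, Ckm, Mylpf, Myh4, Myh7, Tnnc1, Tnnc2 and the member with most reads per kb of each class, and Des was added after its values were seen. Alternatives were other filters, pseudocounts, scalings, limma-voom, 1 fit per sex and leaving out each library. Whether mice of a group come from separate litters is not given, so p-values measure the spread between these mice only. Of the 10 genes most like the set by correlation, 1 is not reported here.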

Additional observations from a re-analysis of the deposited data

How the results depend on the processing

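The count of members called stayed at 0 in 64 of 64 refits with another filter, pseudocount, scaling, threshold, limma-voom or 1 fit per sex, and in 47 of 48 refits with 1 library left out. The exception was CTRL HF vs. VDD HF males without VDD HF male 2308, with 30 called, so there the counts ran from 0 to 30. That mouse was the only VDD HF male low in Ckm, so members chosen with the contrasts known could hardly fail to be called without it. Most of the 64 refits called few or no genes of any kind, so a count of 0 says little there. More passed between the offspring diets at an adjusted p under 0.05 with any fold change. CTRL females then had 1225 genes called among 16563 (0 of 25 members), and VDD males 854 among 15965 (0 of 40). With 1 fit per sex, VDD males had 614 among 15917 (0 of 39 members). The SD of the mean member level between mice of a group is wide, since the members were chosen for their spread. The medians moved by less than that SD in 56 of 56 refits, which they could hardly fail to do. With 1 library left out they ran from 0.76 to 6.65 (CTRL LF vs. VDD LF males), 3.96 to 8.40 (CTRL HF vs. VDD HF males), -1.60 to 2.64 (CTRL LF vs. VDD LF females), -1.77 to 1.80 (CTRL HF vs. VDD HF females), -2.11 to 1.57 (CTRL LF vs. CTRL HF males), -1.78 to 3.93 (VDD LF vs. VDD HF males), -1.58 to 2.29 (CTRL LF vs. CTRL HF females) and -2.36 to 2.18 (VDD LF vs. VDD HF females). Under limma-voom the median of CTRL LF vs. CTRL HF females was 0.07, where the main fit gave -0.10. The median within-group SD of members was 2.93 to 4.07 over the alternatives, beside 0.285 to 0.446 for all genes. With reads not divided by length the slow share moved by over 1.5 times in 7 of the 9 mice with most Ckm, to 4.08% in VDD HF female 2083, 3.40% in CTRL LF female 2335, 3.13% in VDD HF male 2298, 2.62% in VDD LF female 2303, 1.51% in VDD LF male 2310, 0.829% in CTRL HF female 2292 and 0.712% in CTRL LF male 2287. The share of VDD HF female 2083 was 2.66% per length, and that of VDD LF male 2302 moved from 0.0723% to 0.117% with paralog pairs only, and the cause was not tested. No paired analysis was possible because the columns carry mouse numbers and not the replicate numbers of the labels. At 13346779 reads or more per library, values under about 3 normalized reads cannot be told from 0.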

Other observations

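The ubiquitin ligase genes of muscle wasting did not keep a fixed ratio to Ckm among the 9 mice with most Ckm, a reading chosen after the values were seen. Reads of Trim63 were 0.143 of those of Ckm in CTRL LF male 2287, 0.079 in VDD LF male 2302 and 0.09 in VDD LF male 2310. In females on the LF diet the ratio was 0.204 in CTRL LF 2335 and 0.0721 in VDD LF 2303. On the HF diet it was 0.0212 in VDD HF male 2298, 0.0269 in VDD HF male 2307, 0.00992 in CTRL HF female 2292 and 0.0915 in VDD HF female 2083. The highest HF value thus lay inside the LF range. Fbxo32, the other well-known ligase of this kind, ranged from 0.00947 of Ckm in VDD HF male 2307 to 0.0397 in CTRL LF female 2335, with CTRL HF female 2292 at 0.0204. Unlike Trim63, Fbxo32 had at least 20.6 normalized reads in every library, and 2.61 times the reads of Ckm in CTRL HF female 2290. How much of its level in the 9 mice came from cells other than muscle was not tested. Neither ratio was tested against the diet, and the other 15 mice had at most 23.2 normalized reads of Trim63. The paper states that the mice had fasted overnight when they were killed, and the part of the fast in these levels was not tested.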
